A study of Mus musculus with 6 samples.

Results

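The 10 core genes of the NF-kB system were examined in the chromatin of mouse germinal center (GC) B cells: the 5 subunits Nfkb1, Nfkb2, Rel, Rela and Relb, the inhibitors Nfkbia, Nfkbib and Nfkbie, the nuclear inhibitor family member Nfkbiz, and Tnfaip3. The members were taken by name, by a rule that uses no measured value, although earlier results of these data were known when the list was made, and are 10 of 21864 protein-coding genes. Peaks of 2 histone marks were collected at each gene: promoter peaks within 5 kb of a protein-coding transcription start site (TSS), gene body peaks elsewhere in the gene, and outlying peaks 5 to 50 kb from a TSS outside the gene. The gene body together with everything within 50 kb of its TSSs is called the locus.

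NF-kB factors are dimers of subunits that share a Rel homology domain, and they bind short DNA sites known as kappa B sites. In resting cells IkB proteins hold the dimers in the cytoplasm, and signals from receptors such as CD40, the B cell receptor and Toll-like receptors lead to degradation of IkB and entry of the dimers into the nucleus. In the GC reaction this pathway is known for its role in light zone B cells, which receive help from T cells.

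The data are 6 peak lists made by Mint-ChIP, a barcoded chromatin immunoprecipitation for small cell numbers, with 3 libraries for H3K4me1 and 3 for H3K4me3. H3K4me1 is typical of enhancers and promoter flanks, and H3K4me3 of active promoters. All libraries came from spleens of wild-type mice collected on day 8 after sheep red blood cells were given as immunogen, with 50000 cells per library, and the only contrast available is between marks, as no mutant was profiled. The study's wild-type controls carried Cγ1-cre, which is active in B cells entering the GC, but whether these libraries came from such mice was not given in the sources used here. Its general protocol immunized mice at 8 to 12 weeks of age, without naming these libraries. The labels call the cells centrocytes and the study's methods call them GC B cells. The protocol text names an antibody against H3K27ac, whereas the titles name the marks used here. Nothing stated that replicates came from separate mice, so p-values measure only the spread between these libraries.

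The H3K4me1 lists held 24136, 13923 and 11922 peaks in replicates 1, 2 and 3, with a median summit height of 6 fragments in each, and the H3K4me3 lists held 46707, 41936 and 42862 peaks. H3K4me1 was called in narrow form and H3K4me3 in broad form, so every contrast between the marks is also one between calling modes. As a check of the cell label, an H3K4me3 peak covered a TSS in 3 of 3 libraries at 10 of 10 GC B cell markers, 2 of 2 centrocyte, 3 of 3 centroblast and 4 of 4 plasma cell markers, and at 0 of 6 T cell, 0 of 6 myeloid, 0 of 6 erythroid and 0 of 6 other tissue genes. The share of all protein-coding genes was 38.4%. Promoter windows without that requirement, the rule first set for this check, held H3K4me3 in 3 of 3 libraries at 1 of 6 T cell markers (Cd3d), 3 of 6 myeloid, 3 of 6 erythroid and 1 of 6 other tissue genes. They did so at every gene of the GC B cell, centrocyte, centroblast and plasma cell lists, and at 56.1% of all protein-coding genes. The check therefore cannot tell centrocytes from centroblasts or plasma cells.

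Promoter sequences from RefSeq (GRCm38.p6) were matched by symbol for 7 of the 10 genes, and those of Nfkb1, Relb and Nfkbiz were not analysed here. The kappa B consensus was searched on both strands from 250 bases before to 50 bases after each start. It was present at 5 of these 7 genes, Nfkb2, Rel, Nfkbia, Nfkbie and Tnfaip3, and at 5.14% of the 27025 genes of the table. Rela and Nfkbib had no match in these windows. A match describes letters only and was not tested for binding. The 250 bases before the start are printed for these 5 genes because they show the kappa B letters beside the peaks described further on, in the direction of transcription and with the matches in capitals.
Nfkb2, chr19:46304487-46304736 (plus strand): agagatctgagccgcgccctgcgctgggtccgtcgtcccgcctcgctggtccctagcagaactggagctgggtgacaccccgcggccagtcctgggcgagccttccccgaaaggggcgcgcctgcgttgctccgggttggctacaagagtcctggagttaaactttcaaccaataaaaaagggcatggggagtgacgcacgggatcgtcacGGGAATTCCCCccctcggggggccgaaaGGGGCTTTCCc
Rel, chr11:23770970-23771219 (minus strand): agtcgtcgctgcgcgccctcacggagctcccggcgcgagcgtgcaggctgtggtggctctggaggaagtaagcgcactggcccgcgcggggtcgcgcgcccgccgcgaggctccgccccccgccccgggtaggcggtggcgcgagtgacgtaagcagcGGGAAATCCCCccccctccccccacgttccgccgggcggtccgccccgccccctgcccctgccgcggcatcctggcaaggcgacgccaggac
Nfkbia, chr12:55492648-55492897 (minus strand): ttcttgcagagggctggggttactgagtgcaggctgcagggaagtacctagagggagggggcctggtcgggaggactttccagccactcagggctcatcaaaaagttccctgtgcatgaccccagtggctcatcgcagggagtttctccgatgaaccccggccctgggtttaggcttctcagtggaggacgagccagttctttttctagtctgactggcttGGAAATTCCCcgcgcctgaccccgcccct
Nfkbie, chr17:45555450-45555699 (plus strand): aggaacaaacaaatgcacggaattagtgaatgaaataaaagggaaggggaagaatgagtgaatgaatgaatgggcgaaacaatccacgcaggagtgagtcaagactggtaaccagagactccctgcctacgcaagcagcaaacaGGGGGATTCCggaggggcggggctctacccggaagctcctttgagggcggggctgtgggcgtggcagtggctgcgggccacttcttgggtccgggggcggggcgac
Tnfaip3, chr10:19015411-19015660 (minus strand): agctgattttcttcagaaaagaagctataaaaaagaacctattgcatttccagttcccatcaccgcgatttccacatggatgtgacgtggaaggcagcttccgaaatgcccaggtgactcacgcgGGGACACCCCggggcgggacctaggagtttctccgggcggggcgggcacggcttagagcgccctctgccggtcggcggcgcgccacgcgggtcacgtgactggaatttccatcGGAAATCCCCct

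Counted from the start as position 0, the matches in the printed Nfkb2 promoter ran from -39 to -29 (overlapping matches on both strands) and from -11 to -2. The other Nfkb2 promoters, each counted from its own start, held matches from -236 to -227, from 10 to 19 and from -225 to -216. The last 2 of these are the same site, which lies in both promoters because they overlap. At Rel the matches ran from -92 to -82, again as overlapping matches. Nfkbia had a match from -29 to -20, Nfkbie from -106 to -97, and Tnfaip3 from -125 to -116 and from -12 to -3. Over the 7 genes the table held 10 promoters, and 7 of these held a match against 4.51% of all 32851 promoters. Nfkb2 supplied 3 of the 10, some of which overlap, so the site they share was counted in both. No H3K4me1 peak touched any of the 10 windows, whereas H3K4me3 peaks touched 9 of them in 3 of 3 libraries and that of Nfkbia in 2.

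Sequences of 4 H3K4me1 regions are printed next because these regions were found in at least 2 libraries and lay over 5 kb from the TSSs of other genes. With 1 region per gene, they are the first 4 by number of libraries and then by mean fold enrichment, and a region at Relb came next. Each sequence is the 150 bases around the highest summit, on the plus strand of GRCm38.p6, and none of these 4 held a kappa B match. That of Nfkb1 lies outside the replicate 3 peak of its region.
Nfkb1 upstream region, chr3:135720146-135720295: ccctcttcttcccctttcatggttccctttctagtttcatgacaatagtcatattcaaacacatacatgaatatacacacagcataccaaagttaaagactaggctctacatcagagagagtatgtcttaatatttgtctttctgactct
Tnfaip3 promoter region, chr10:19010304-19010453: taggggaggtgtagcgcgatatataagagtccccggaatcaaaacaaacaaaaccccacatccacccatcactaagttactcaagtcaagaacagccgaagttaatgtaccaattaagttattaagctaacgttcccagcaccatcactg
Rel upstream region, chr11:23779079-23779228: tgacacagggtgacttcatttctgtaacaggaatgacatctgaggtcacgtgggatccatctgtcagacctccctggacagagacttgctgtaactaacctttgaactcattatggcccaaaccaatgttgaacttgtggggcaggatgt
Nfkbia gene region, chr12:55490262-55490411: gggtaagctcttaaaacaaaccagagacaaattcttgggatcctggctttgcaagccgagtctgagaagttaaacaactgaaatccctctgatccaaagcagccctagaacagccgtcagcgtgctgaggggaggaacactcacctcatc

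Around the H3K4me1 summits at the 10 genes, windows of this size held a kappa B match at 2 of 57, 1 of 32 and 0 of 26 summits in replicates 1, 2 and 3. Over all H3K4me1 summits the shares were 1.40%, 1.30% and 1.23%.

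H3K4me3 was found at the promoter of every member, and H3K4me1 at fewer. At 10 of 10 members, all 3 libraries had a promoter H3K4me3 peak, against 56.1% of all protein-coding genes. The count was 5 members when each list was cut to its 10000 strongest peaks. Shares over all genes, here and below, are not given for such alternatives. For H3K4me1, all 3 libraries had a promoter peak at 3 members, Nfkb1, Nfkbiz and Tnfaip3, against 6.17% of all genes. Nfkb2, Nfkbia and Nfkbib had one in 2 libraries, Rel and Relb in 1, and Rela and Nfkbie in 0. Without H3K4me1 replicate 2 the count was 5 members. Where a library is left out, here and below, presence is needed only in the remaining ones, so such a count cannot fall. With peaks limited to a −log10 q-value of at least 5 the count was 0.

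In the gene body, H3K4me1 was present in 3 of 3 libraries at 1 member, Nfkb1 (6.64% of all genes), and H3K4me3 at 4 members, Nfkb1, Rel, Relb and Nfkbie (19.3% of all genes). Without H3K4me1 replicate 3 the former count was 2. Gene body peaks had to lie over 5 kb from the TSSs, so these counts depend on gene length. Nfkbia, 3.24 kb long, could have none, whereas Nfkb1 is 107 kb long. The shares over all genes were not matched for length. Outlying H3K4me1 was present in 3 of 3 libraries at 5 members, Nfkb1, Rel, Nfkbia, Nfkbib and Tnfaip3 (20.4% of all genes), and at 8 without replicate 2. Outlying H3K4me3 was present at 10 members (60.3% of all genes). Without outlying peaks that lay within 5 kb of a TSS of another gene, the counts were 4 members for H3K4me1 and 9 for H3K4me3. Loci differ in their neighbours: TSSs of 7 other protein-coding genes lay in the locus of Nfkbib, of 7 in that of Nfkbie, of 5 in that of Nfkb2 and of 3 each in those of Rela and Relb, and of 0 in the other loci. Part of the neighbouring gene Pus10 lay in the locus of Rel and part of Nxpe3 in that of Nfkbiz.

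**Figure D1:**
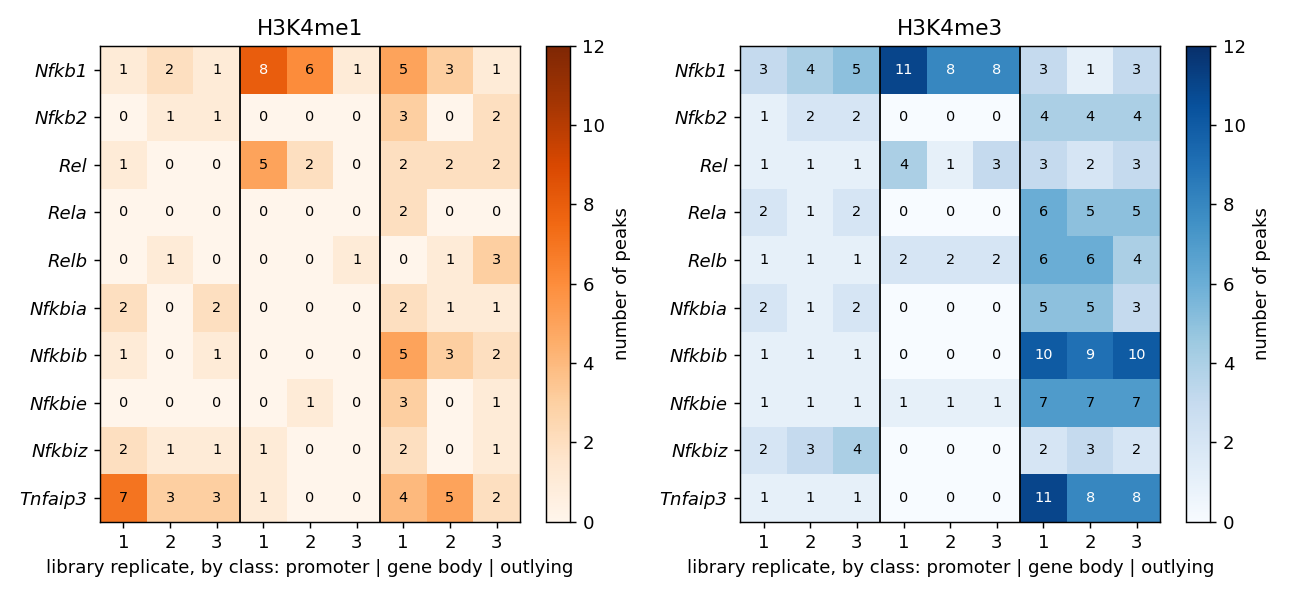
Number of peaks at each member (vertical axis) in each of 3 libraries per mark (horizontal axis), split into promoter, gene body and outlying peaks, with H3K4me1 on the left and H3K4me3 on the right and color for the number of peaks. Promoter H3K4me3 is above 0 in every cell, whereas promoter H3K4me1 is above 0 in all 3 libraries only at Nfkb1, Nfkbiz and Tnfaip3.

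Start sites of most members were covered by H3K4me3. Of the 19 protein-coding TSSs of the members, 17 were covered by an H3K4me3 peak in at least 1 library and 0 by an H3K4me1 peak in any, against 48.4% and 1.55% of all 41451 protein-coding TSSs, so coverage by H3K4me1 was rare throughout. At least 1 TSS was covered by H3K4me3 in 3 of 3 libraries at 6 members, Nfkb2, Rel, Nfkbib, Nfkbie, Nfkbiz and Tnfaip3, against 38.4% of all genes. The TSS of Relb and that of Nfkbia were covered in 2 libraries and that of Rela in 1. Both TSSs of Nfkb1 were covered in 0.

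Among the subunits, Nfkb1 (chr3:135584655-135691547, minus strand), which encodes the p105 precursor of p50, had H3K4me3 on both sides of its main start but not on it. In each of the 3 libraries a peak inside the gene ended 673 bp from that TSS, at the same base, and another lay 158, 215 and 215 bp upstream of it. The widest promoter H3K4me3 peak measured 4784, 3075 and 3014 bp. Nfkb1, at 107 kb the longest of the members, also had the most gene body peaks. It had 11, 8 and 8 H3K4me3 peaks and 8, 6 and 1 H3K4me1 peaks in replicates 1, 2 and 3. H3K4me1 was therefore uneven between libraries here, and replicate 3 was low.

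Upstream of Nfkb1 lay the only H3K4me1 region of the members that was found in 3 of 3 libraries, chr3:135719541-135720286, in intergenic sequence 27995 bp from the nearest TSS. Its fold enrichment was 5.61, 5.25 and 3.35, at summit heights of 7, 6 and 7 fragments. Replicate 1 had 2 peaks in it, with summits 572 bp apart, and the nearest summits of the 3 libraries lay within 126 bp of each other. H3K4me3 lay over it in 3 of 3 libraries. Neighbouring H3K4me1 regions were found in 2 libraries on each side, chr3:135718854-135719404 with H3K4me3 in 3 libraries and chr3:135721386-135722026 with H3K4me3 in 0.

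Nfkb2 (chr19:46304320-46312385, plus strand), which encodes the p100 precursor of p52, had all 4 of its TSSs covered by H3K4me3 in 3 of 3 libraries. The widest promoter peak measured 3938, 2204 and 2308 bp. H3K4me1 gave 3, 1 and 3 peaks in the locus and no region was shared between libraries. The region with the highest fold enrichment, chr19:46303958-46304245, lay just before the gene and was found in replicate 2 only, at 5.75.

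Rel (chr11:23736847-23770970, minus strand) encodes c-Rel, a subunit abundant in lymphocytes. A promoter H3K4me3 peak of 5758, 5935 and 5510 bp covered its TSS in all libraries, and these widths were at percentiles 96.2, 97.9 and 97.2 of genes with a promoter peak. H3K4me1 gave 8, 4 and 2 peaks in the locus, of which 5, 2 and 0 were in the gene body. The intergenic region chr11:23779035-23779432, 8065 bp upstream of the start, had H3K4me1 in replicates 1 and 3, at a fold enrichment of 4.81 and 5.12, and H3K4me3 in 3 libraries. Replicate 2 had a peak next to it, at chr11:23778475-23778848, with a fold enrichment of 4.80. An intronic region, chr11:23764908-23765349, was shared by replicates 1 and 2.

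Rela (chr19:5637483-5648130, plus strand), which encodes p65, had the lowest mean length covered by each mark among the subunits, with ranges that overlapped those of others. H3K4me1 gave 2, 0 and 0 peaks, both of them past the 3′ end of the gene, of which chr19:5648872-5649081 had the higher fold enrichment, 7.72, and held 2 kappa B matches in the 150 bases around its summit. The widest promoter H3K4me3 peak measured 801, 1984 and 899 bp, at percentiles 13.0, 60.5 and 18.7. Replicate 2 joined across the TSS, whereas in replicates 1 and 3 the peak ended 69 and 72 bp before it.

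Relb (chr7:19606217-19629438, minus strand), a partner of p52, had promoter H3K4me3 peaks of 2820, 1740 and 1089 bp. The last of these began 135 bp inside the gene and left the TSS uncovered. H3K4me1 gave 0, 2 and 4 peaks, and replicate 1, the list with the most peaks in all, was the one without any. The region shared by replicates 2 and 3, chr7:19589743-19590032, lay in an intron of the neighbouring gene Clasrp.

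Among the inhibitors, Nfkbia (chr12:55489410-55492647, minus strand), which encodes IkBα, had promoter H3K4me3 peaks of 4041, 6619 and 3520 bp. In replicate 2 a single peak covered the gene and the flank past its 3′ end, which replicates 1 and 3 split in 2. H3K4me1 gave 4, 1 and 3 peaks. The region chr12:55490208-55490437, inside the gene and overlapping an exon, was found in replicates 1 and 3 with summits 13 bp apart and at a fold enrichment of 3.51 and 5.12.

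Nfkbib (chr7:28758251-28767512, minus strand), which encodes IkBβ, lay among other genes, and most of its outlying peaks lay near their promoters. Of 10, 9 and 10 outlying H3K4me3 peaks, 8, 7 and 8 were within 5 kb of a TSS of another gene. The promoter peak itself measured 2308, 2049 and 2184 bp. H3K4me1 gave 6, 3 and 3 peaks, and the shared region, chr7:28808165-28808503, lay at the promoter of Hnrnpl.

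Nfkbie (chr17:45555703-45563169, plus strand), which encodes IkBε, had a promoter H3K4me3 peak of nearly the same width in each library, 5260, 5139 and 5192 bp. H3K4me1 gave 3, 1 and 1 peaks, none of them in the promoter. The region found in 2 libraries, chr17:45563084-45563435, overlapped the 3′ end of the gene and lay within 5 kb of the start of Slc35b2. The gene body H3K4me3 region, chr17:45562055-45565521, also ran past the 3′ end and lay within 5 kb of that start.

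Nfkbiz (chr16:55811375-55838899, minus strand) encodes IkBζ, a member of the IkB family that acts in the nucleus on transcription. Its promoter had H3K4me1 in 3 of 3 libraries, with 2, 1 and 1 peaks, but no H3K4me1 region of this locus was found in more than 1 library. The peaks of replicates 2 and 3 were adjacent, with 1 base between them and summits 126 bp apart, and those of replicate 1 lay further into the gene. Its chr16:55838186-55838393 peak in replicate 3, in an intron, had a fold enrichment of 10.2 at 13 fragments. The widest promoter H3K4me3 peak measured 3836, 3298 and 2360 bp. In replicate 3 this peak lay near the start inside the gene, and the peak over the main start measured 1618 bp. The start inside the gene, at position 55822138, was covered by H3K4me3 in 1 library, with peaks on both sides of it in the others.

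Tnfaip3 (chr10:19000910-19015657, minus strand) encodes A20, a ubiquitin-editing enzyme that restrains signaling to NF-kB. It had the widest promoter H3K4me3 peak of the members, 6905, 6846 and 6845 bp, at percentiles 98.0, 98.8 and 98.7. The edges inside the gene fell at positions 19009371, 19009370 and 19009369. It also had the most promoter H3K4me1 peaks, 7, 3 and 3, and replicate 1 was the highest.

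At Tnfaip3, 6 H3K4me1 regions were shared by 2 libraries, and 5 of them lay in the promoter class, all intronic and all with H3K4me3 in 3 libraries. The region chr10:19010093-19010610 had the highest mean fold enrichment of these, 7.72 in replicate 1 and 5.12 in replicate 3. Summits were 1 bp apart at chr10:19011105-19011337 and 5 bp apart at chr10:19014042-19014598. The outlying region chr10:18986997-18987467 was intergenic and lay 24496 bp from the nearest TSS of the gene.

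**Figure D2:**
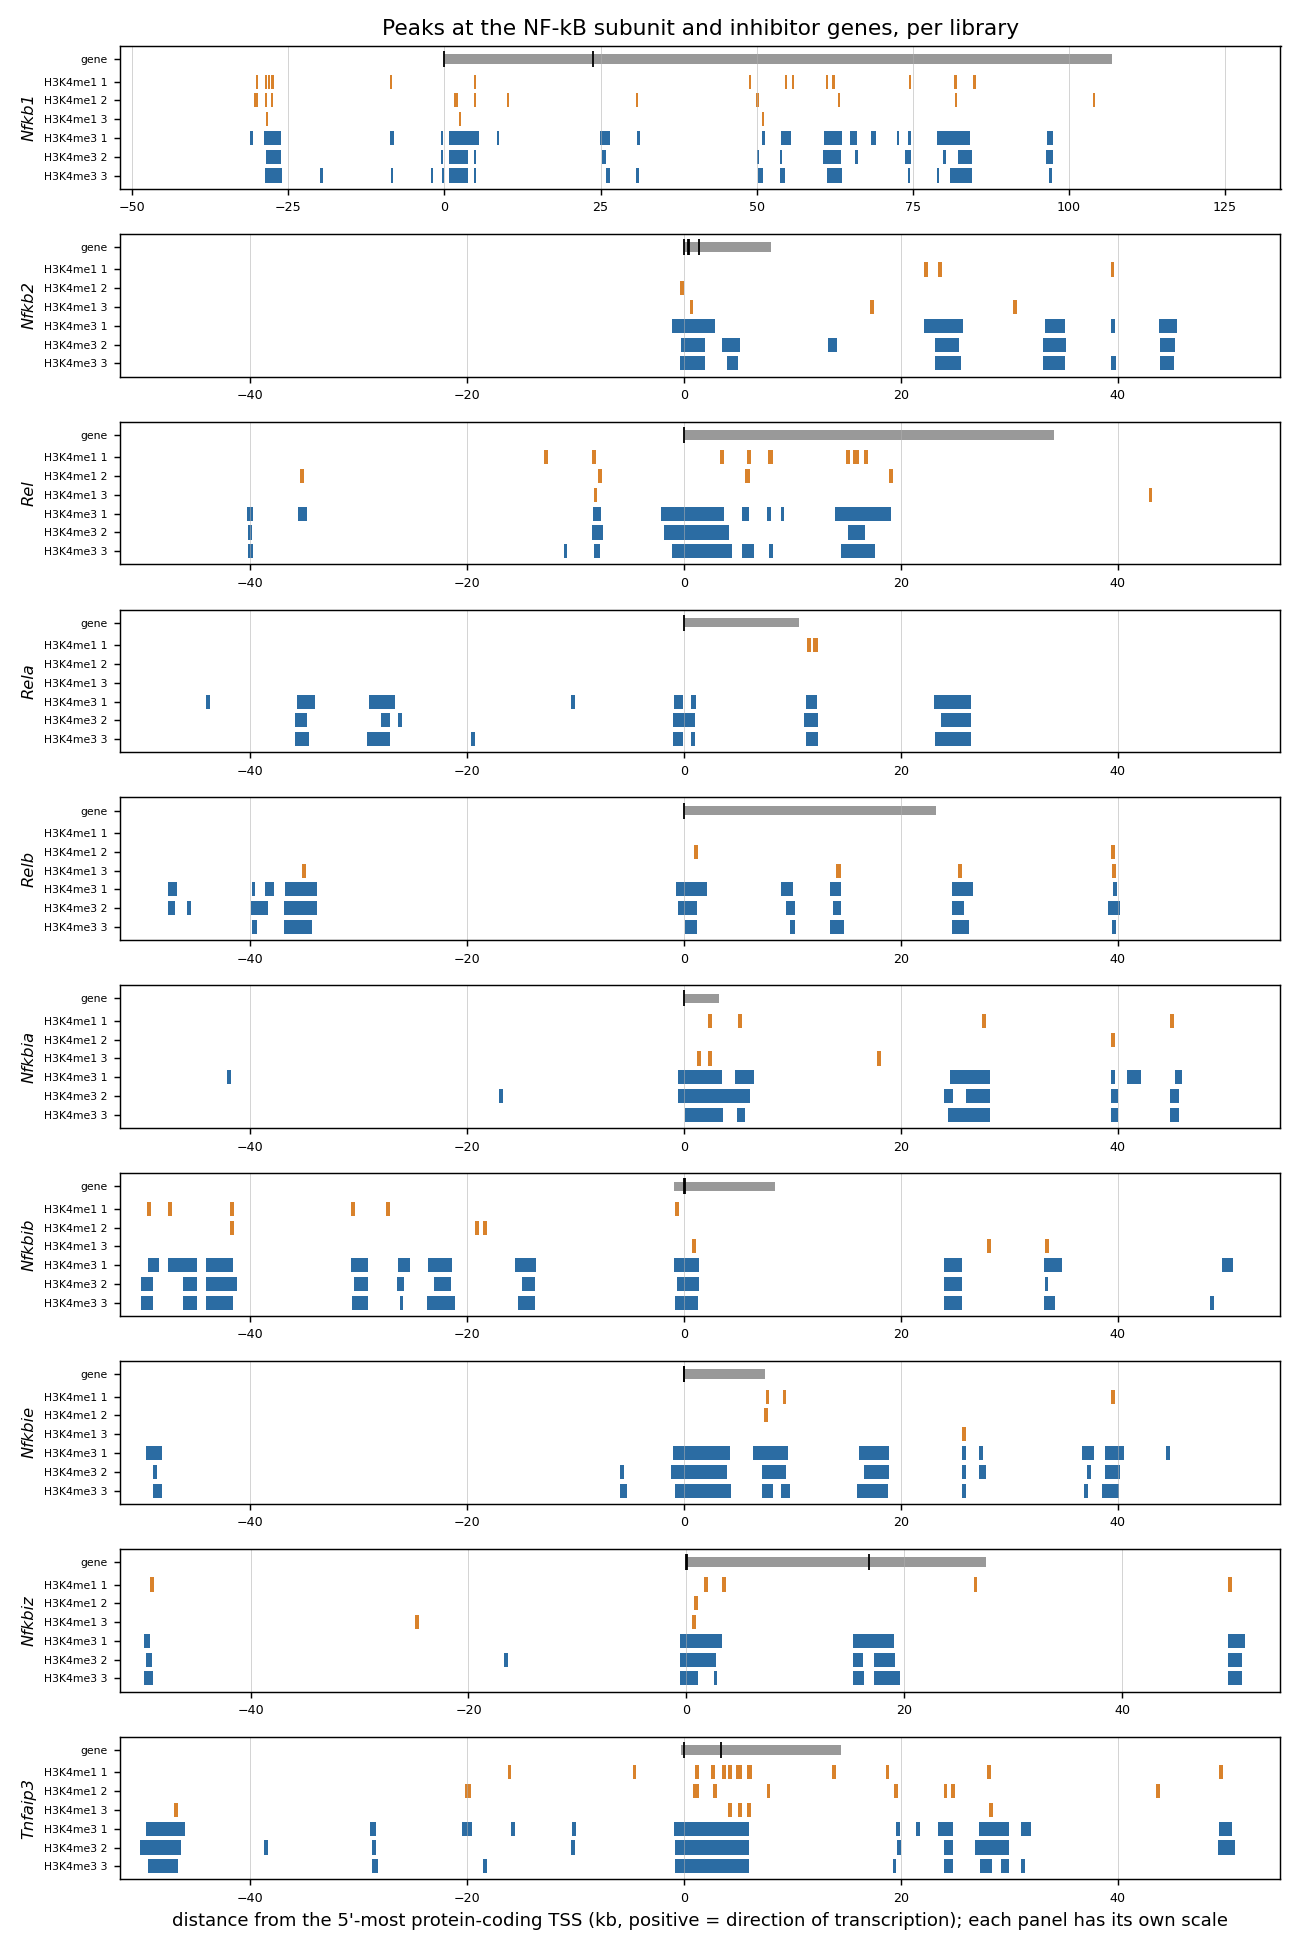
Peaks at each member by distance from its 5′-most protein-coding TSS (horizontal axis, kb, positive in the direction of transcription), with 1 line per library (H3K4me1 in orange, H3K4me3 in blue), the gene in gray and its TSSs as black ticks. Peaks narrower than 0.35 kb are drawn at that width, so a bar that touches a TSS in the drawing need not cover it. Tnfaip3 has 1 H3K4me3 peak of nearly equal extent in each library, and Nfkb1 has both marks in all 3 libraries upstream of the gene.

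At the 10 genes, as in the whole lists, few H3K4me1 positions were shared between libraries. Merging the peaks of the 3 libraries gave 96 H3K4me1 regions, of which 79 were found in 1 library, 16 in 2 and 1 in 3. These are 82.3%, 16.7% and 1.04%, beside 78.6%, 16.7% and 4.69% of the 39376 H3K4me1 regions of the whole lists. H3K4me3 gave 101 regions, of which 27 were found in 1 library, 13 in 2 and 61 in 3, and the last are 60.4% beside 41.6% of the 64441 H3K4me3 regions of the whole lists. Presence of H3K4me1 in all libraries at a gene therefore often rested on different positions. Nfkb1, whose locus of 157 kb was the longest, had 21 of the 96 regions, Tnfaip3 19, Rel 12 and Nfkbib 11, whereas Rela had 2.

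Most H3K4me1 peaks at these genes lay on H3K4me3. Of 57, 32 and 26 H3K4me1 peaks, 43, 21 and 20 overlapped a peak of at least 2 H3K4me3 libraries. The shares were 75.4% (95% Wilson interval 62.9 to 84.8), 65.6% (48.3 to 79.6) and 76.9% (57.9 to 89.0), and the intervals cover counting error only. Over all H3K4me1 peaks the shares were 71.7%, 72.6% and 76.7%, each inside the interval of the same replicate. With the 10000 strongest peaks of each list the mean share at the members was 38.3%, and no share over all H3K4me1 peaks is given for that setting. Of the 96 regions, 23 had no H3K4me3 in any library, 6 of them at Nfkb1 and 6 at Tnfaip3.

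**Figure D3:**
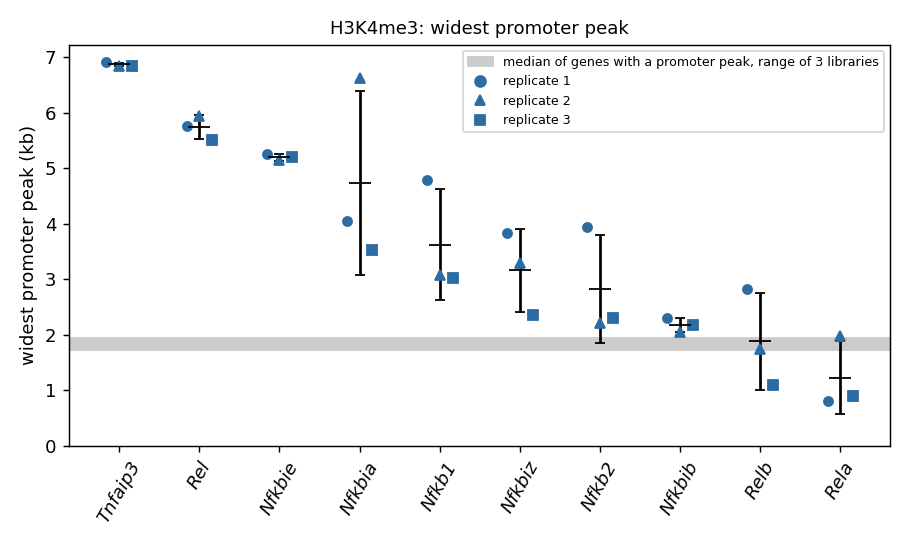
Width of the widest promoter H3K4me3 peak (vertical axis, kb) at each member, with 1 point per library, the mean as a bar and the SD over 3 libraries as error bars. The gray band spans the library medians over genes with a promoter peak. The means run from 6.87 kb at Tnfaip3 to 1.23 kb at Rela.

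Promoter H3K4me3 was widest at Tnfaip3, with a mean of 6.87 ± 0.0344 kb (SD, n = 3), followed by Rel at 5.73 ± 0.213 kb and Nfkbie at 5.20 ± 0.0607 kb. These 3 did not overlap each other. The next in order overlapped their neighbours: Nfkbia had 4.73 ± 1.66 kb, Nfkb1 3.62 ± 1.005 kb, Nfkbiz 3.16 ± 0.747 kb and Nfkb2 2.82 ± 0.972 kb. At Nfkbiz the widest peak of replicate 3 lay at another start than those of replicates 1 and 2. The narrowest were Nfkbib at 2.18 ± 0.130 kb, Relb at 1.88 ± 0.874 kb and Rela at 1.23 ± 0.657 kb. The median over the members was 3.99, 3.19 and 2.69 kb in replicates 1, 2 and 3, and the median over all genes with a promoter peak was 1.95, 1.72 and 1.75 kb.

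Peaks covered more of each locus in H3K4me3 than in H3K4me1. At Tnfaip3, H3K4me1 covered 4.01, 2.45 and 1.20 kb and H3K4me3 19.1, 17.1 and 13.8 kb. At Nfkb1 the lengths were 3.81, 4.01 and 0.857 kb against 24.8, 15.1 and 17.0 kb, and at Rela 0.689, 0 and 0 kb against 10.2, 8.32 and 9.06 kb. All H3K4me3 libraries lay above all H3K4me1 libraries at 10 of 10 members, as they did at 73.9% of all genes. With the 10000 strongest peaks of each list this held at 8 members, and the exact permutation p was 0.4 at Rel and at Tnfaip3, where the differences of the means were 2.90 and 2.78 kb. The two-sided exact permutation test gave p = 0.1 at each member (n = 3 per mark), which is the smallest p this design allows, so none could pass 0.05. The difference of the means ranged from 7.76 kb at Nfkbiz to 16.1 kb at Nfkb1, which has the longest locus.

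As a share of the locus, H3K4me1 was highest at Tnfaip3, 2.47% ± 1.36 (SD, n = 3), then Nfkb1, 1.84% ± 1.12, and Rel, 1.51% ± 1.04, and lowest at Rela, 0.230% ± 0.398. The ranges of all neighbours in this order overlapped. H3K4me3 was highest at Nfkbib, 16.3% ± 2.50, and Tnfaip3, 16.1% ± 2.60, and lowest at Rela, 9.21% ± 0.969, and Nfkbiz, 7.19% ± 0.998, and only the last pair did not overlap. The median over the members was 0.628% for H3K4me1 and 11.2% for H3K4me3, against 0.159% and 3.24% over all protein-coding genes.

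**Figure D4:**
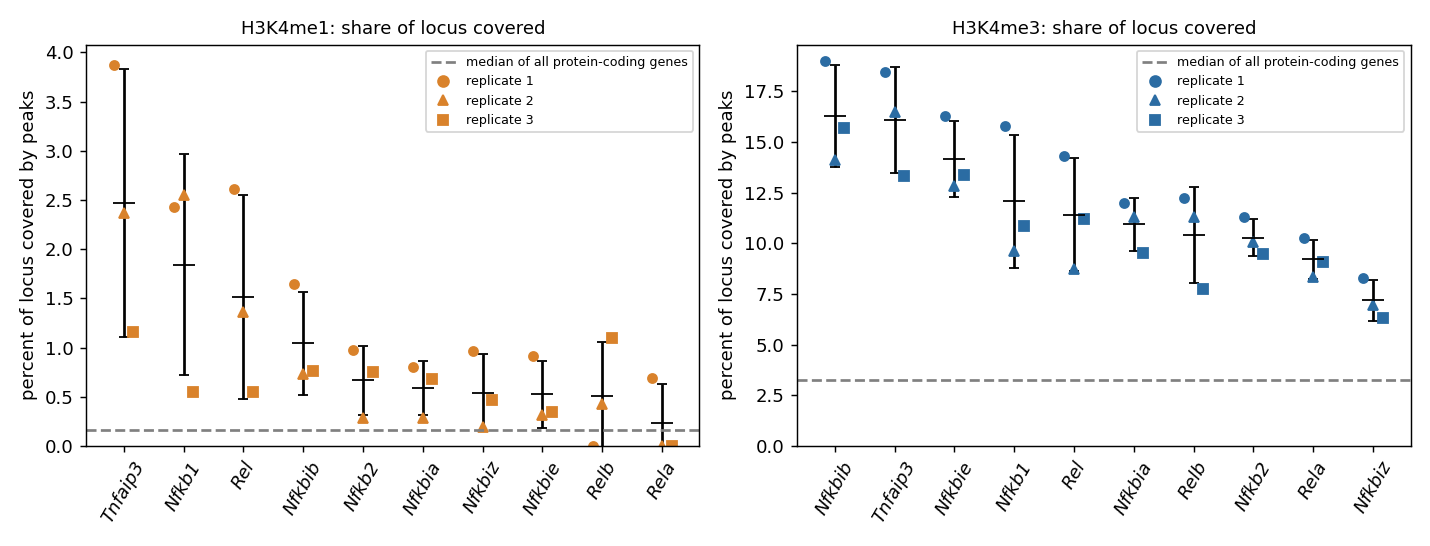
Percent of each locus covered by peaks (vertical axis) for H3K4me1 on the left and H3K4me3 on the right, with 1 point per library, the mean as a bar and the SD over 3 libraries as error bars, which are cut at 0. The scales differ between the panels, and the dashed lines mark the medians of all protein-coding genes, 0.159% and 3.24%. All H3K4me3 points lie above their line, whereas some H3K4me1 points at Relb and Rela are at 0.

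The other genes of the pathway were taken from a list of 43: receptors, adaptors, kinases, ubiquitin-editing proteins and further IkB proteins. Promoter H3K4me3 was present in 3 of 3 libraries at 41 and promoter H3K4me1 at 15, against 56.1% and 6.17% of all protein-coding genes. By role, H3K4me3 and H3K4me1 were present in that way at 6 and 3 of 8 receptors, 14 and 5 of 14 adaptors, 8 and 2 of 8 kinases, 11 and 5 of 11 ubiquitin-editing proteins and 2 and 0 of 2 IkB proteins. The receptor gene Ltbr had no promoter H3K4me3 in any library, and Tnfrsf1a had it in 2. The median share of the locus covered over the 43 genes was 0.658% for H3K4me1 and 9.87% for H3K4me3. Over the members it was 0.628% and 11.2%, so the 2 sets were similar.

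Of the 15 with promoter H3K4me1, Prkcb, a kinase of B cell receptor signaling, had the most H3K4me1 peaks in its locus, 24, 15 and 9. These counts were not scaled to locus length. Prkcb is a long gene, at chr7:122288751-122634402, whereas Cd40 spans chr2:165055627-165072948. Traf5, an adaptor of TNF receptors, had 11, 8 and 7, and Tab2, an adaptor of the kinase TAK1, had 8, 5 and 5. Tnip1, which binds A20, had 10, 4 and 4, and Otulin, which removes linear ubiquitin chains, had 11, 4 and 2. Among receptors, Tnfrsf13b (TACI) had 8, 4 and 5, Tlr9, a sensor of DNA, had 7, 5 and 4, and Cd40, the receptor for T cell help, had 6, 4 and 5. At each of these 8 genes replicate 1, the longest H3K4me1 list, had the most peaks.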

How the data were processed

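The authors deposited 1 peak list per library, called in each library separately. The submitters' processing notes name BWA, Picard, HOMER, Genrich and mm10, whereas the columns follow MACS2, and version, settings and control of the caller were not given in the sources used here. The deposited values are a fold enrichment (a linear ratio over local background), its −log10 p-value and −log10 q-value, and a score, which was not used. Total reads were not used here, so depth is known only through the number of peaks and the summit height in fragments, recovered from the fold enrichment and p-value of the H3K4me1 lists.

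Libraries were grouped by mark from their titles. Coordinates were read as GRCm38, and 0 peaks lay past a chromosome end. TSSs came from the GENCODE protein-coding transcripts of 21864 genes. Overlap meant at least 1 bp. Covered length per locus was compared with a two-sided exact permutation test over all 20 assignments of the 6 libraries. Peaks were assigned with code checked on simulated data. Genes beyond the members were named by rule: up to 8 pathway genes with promoter H3K4me1 in 3 of 3 libraries, by number of H3K4me1 peaks, and genes with no promoter H3K4me3. H3K4me1 regions were named if found in 3 of 3 libraries, otherwise as the region of a gene found in most libraries. Further regions and edges at Nfkb1, Rel and Tnfaip3 were picked after their values were seen, as was the order by which 4 regions were printed, which also left out windows that overlap a UTR. The members and lists were chosen with earlier results of these data known. Alternatives were a stricter q-value, equal numbers of peaks, another promoter distance, all transcripts, the promoter window alone, peaks away from other promoters, another overlap, presence in 2 libraries, leaving out each library and pairing by replicate number. Python 3.11.15, numpy 2.4.6, pandas 2.3.3, scipy 1.17.1, matplotlib 3.10.9 and pysam 0.24.0 were used.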

Additional observations from a re-analysis of the deposited data

How the results depend on the processing

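Of 77 values recomputed under the alternatives, 56 stayed within 1.5 times the reported count or 1 SD between libraries and 21 moved. Shares over all genes are not given for the alternatives, so these counts cannot be set against those of the main setting. With a −log10 q-value of at least 5, the members with H3K4me1 in 3 of 3 libraries numbered 0 at promoters, 0 in gene bodies and 0 at outlying positions, those with gene body H3K4me3 numbered 2, the H3K4me1 peaks per library averaged 7, and their overlap with H3K4me3 was 61.8%. With the 10000 strongest peaks per library, promoter H3K4me3 was present at 5 members, gene body H3K4me3 at 2, outlying H3K4me3 at 6 and outlying H3K4me1 at 3, and the overlap was 38.3%. The same setting gave 2 members with promoter H3K4me1 and 22.7 H3K4me1 peaks per library, and left all H3K4me3 libraries above all H3K4me1 libraries in covered length at 8 members, not at Rel or Tnfaip3 (exact permutation p = 0.4 at each). With promoters taken as 1 kb, promoter H3K4me1 was present at 1 member and gene body H3K4me1 at 2. Presence in at least 2 of 3 libraries gave 6, 2 and 9 members with promoter, gene body and outlying H3K4me1. Leaving out 1 library at a time gave 3 to 5, 1 to 2 and 5 to 8 members for these classes, and an overlap of 62.5% to 76.2%. These counts of members needed presence only in the remaining libraries, so they could stay or rise but not fall. The difference in mean covered length kept its sign at each member under each alternative run, with differences of 1.44 to 20.6 kb. Every alternative kept narrow calls for H3K4me1 and broad calls for H3K4me3, so mark and calling mode cannot be told apart in this sign.

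Deviations of same-numbered libraries from their group means correlated at -0.0171, -0.00656 and -0.0152 over 19168 genes. The marks were called in different modes, so these values cannot tell whether same-numbered libraries came from the same cells. With a replicate block, which pairs same-numbered libraries, H3K4me3 exceeded H3K4me1 in each pair at 10 members, with an exact sign-flip p = 0.25, the smallest that 3 pairs allow.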
